A study of Mus with 21 samples.

Results

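The collagen genes are the 44 genes, of 55335 in the table of counts, whose symbol consists of Col, a type number, the letter a and a chain number. By type they were split into 11 fibrillar collagens, 8 basement membrane collagens, 9 FACIT collagens (fibril-associated collagens with interrupted triple helices) and 16 others. Whole brains of female mouse embryos at E17.5 gave 21 RNA sequencing libraries of polyadenylated RNA, in a study of how the dosage of Wapl and Nipbl affects the embryonic brain. Nipbl, with its partner, loads the cohesin ring onto DNA, and Wapl releases it. The groups were 5 WT embryos with the genotype Wapl +/+; Nipbl +/+, 3 Nipbl+/- embryos with normal Wapl, 7 WaplΔ/+ embryos with normal Nipbl, and 6 double heterozygotes that carried both mutant alleles. The mutant Wapl allele lacks the promoter and the first exons and was made in 129-derived embryonic stem cells that were then bred to C57BL/6J, and the Nipbl- allele was made by a Cre active in the male germ line. Every mutant embryo therefore kept a normal copy of each gene in all its cells. A further Nipbl+/- library that the authors excluded was not analysed here.

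Collagens are built from chains wound into a triple helix, and the chains of a type are often encoded by separate genes. Fibrillar collagens form the banded fibres of skin, bone, cartilage and the coverings of the brain, FACIT collagens sit on the surface of such fibres, and type IV collagens form the sheet-like network of basement membranes around vessels and under the pia. In the brain most fibrillar collagen is made by fibroblasts of the meninges and by cells of the vessel wall, and type IV collagen by endothelial cells and pericytes, whereas a few transmembrane collagens such as type XXV are made by neurons. In bulk tissue, fewer cells of a type and less RNA per cell cannot be told apart.

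Total counts on genes ranged from 25682566 to 35818767 per library. The deleted genes followed the labels in every library. Wapl had 1389 to 1606 normalized counts in WT and 590.4 to 774.5 in the 13 embryos with WaplΔ, and Nipbl had 2019 to 2402 in WT and 1104 to 1287 in the 9 embryos with the Nipbl- allele, with no overlap. Brain markers, led by Tubb3, summed to 4250 to 4950 CPM, counts scaled to the effective size of the library, in all 21 libraries. Marker genes of cartilage and bone were detected at low and uneven levels. Cartilage markers, led by Acan, summed to 4.99 to 7.95 CPM in WT, and lay above that range in WaplΔ/+ libraries 3 and 4 (15.9 and 9.94 CPM) and in double heterozygote libraries 1 and 2 (49.5 and 8.23 CPM). Bone markers, led by Alpl, summed to 13.9 to 19.8 CPM in WT, and the sum was higher in Nipbl+/- library 1 (31.9 CPM), WaplΔ/+ libraries 1 and 4 (22.1 and 19.9 CPM) and double heterozygote libraries 1 and 2 (38.9 and 43.3 CPM). Without Alpl the mean sum was 5.21 CPM in WT, 10 in Nipbl+/-, 5.32 in WaplΔ/+ and 12.1 in double heterozygote embryos. The bone markers did not rise as a set in Nipbl+/- embryos, where their median log2 fold change against WT was 0.033. The mitochondrial transcript mt-Nd3 had at most 6 counts in 12 libraries and at least 52 in the other 9, which were WT 4 and 5, WaplΔ/+ 3 to 7 and double heterozygotes 5 and 6. No label names this difference, and none of the Nipbl+/- libraries had the higher level.

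All 44 collagen genes were detected in all 21 libraries and all were tested. Together they took 0.162% to 0.286% of a library's counts. In WT the fibrillar genes summed to 799 ± 80.8 CPM and the basement membrane genes to 782 ± 39.2 CPM (SD, n = 5), the FACIT genes to 212 ± 12.4 CPM and the others to 307 ± 13.3 CPM. The fibrillar sum was 119% of the WT mean in Nipbl+/- embryos, 129% in WaplΔ/+ embryos and 121% in double heterozygotes. Its SD grew from 80.8 CPM in WT to 172, 173 and 313 CPM in those groups, and all of them overlapped WT. The basement membrane sum was 104%, 114% and 101% of WT in the same order. The FACIT sum was 104%, 107% and 106% of WT, and that of the other collagens 96%, 109% and 98.8%.

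**Figure D1:**
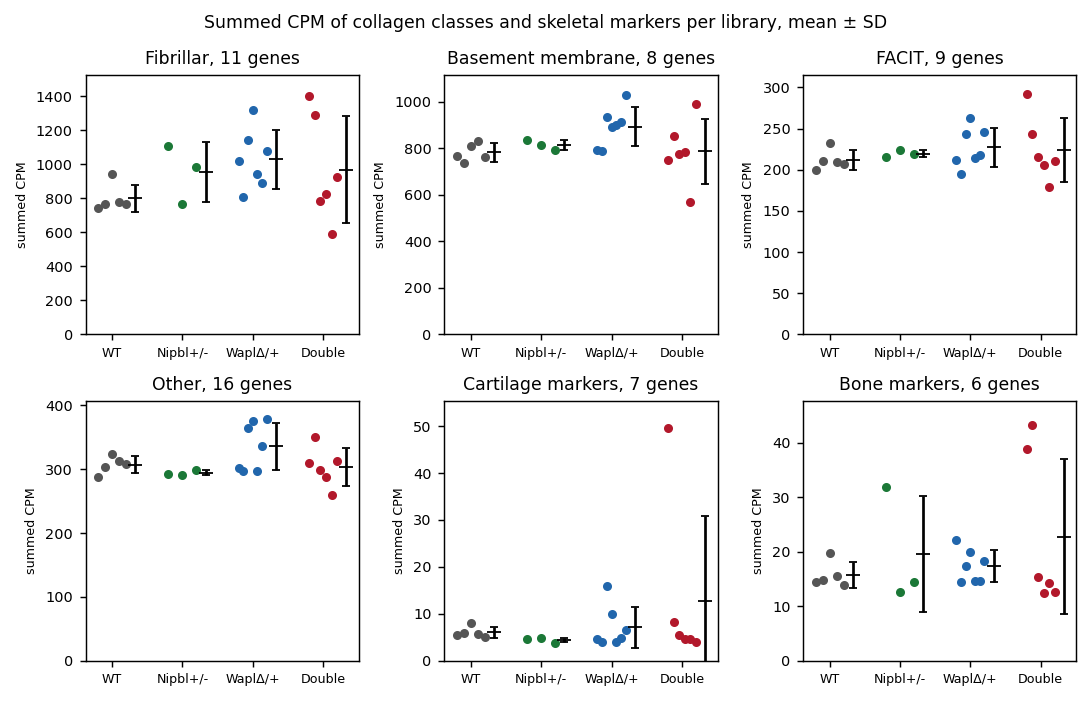
Summed CPM (y axis) of each collagen class and of cartilage and bone markers in each of the 21 libraries by genotype (x axis); points are libraries and bars are mean ± SD. Double heterozygote libraries 1 and 2 had the highest bone marker sums, 38.9 and 43.3 CPM, and fibrillar sums of 1400 and 1290 CPM, and double heterozygote library 5 had the lowest fibrillar sum, 589 CPM.

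Single libraries differed widely from the rest of their groups. Double heterozygote library 5 was the lowest of all 21 libraries in 23 of 44 collagen genes, whereas it was the lowest in 15.3% of the 17303 genes that averaged 1 CPM or more. WaplΔ/+ library 7 was the highest in 10 collagen genes, and WaplΔ/+ library 4 and double heterozygote library 1 in 8 each. These libraries were the highest in 9.02%, 3.03% and 3.99% of those 17303 genes. The genes that varied most across the 21 libraries were Col10a1, made by hypertrophic cartilage cells, with a 49.8-fold range, and Col9a1, a partner of cartilage fibrils, with a 14.7-fold range.

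**Figure D2:**
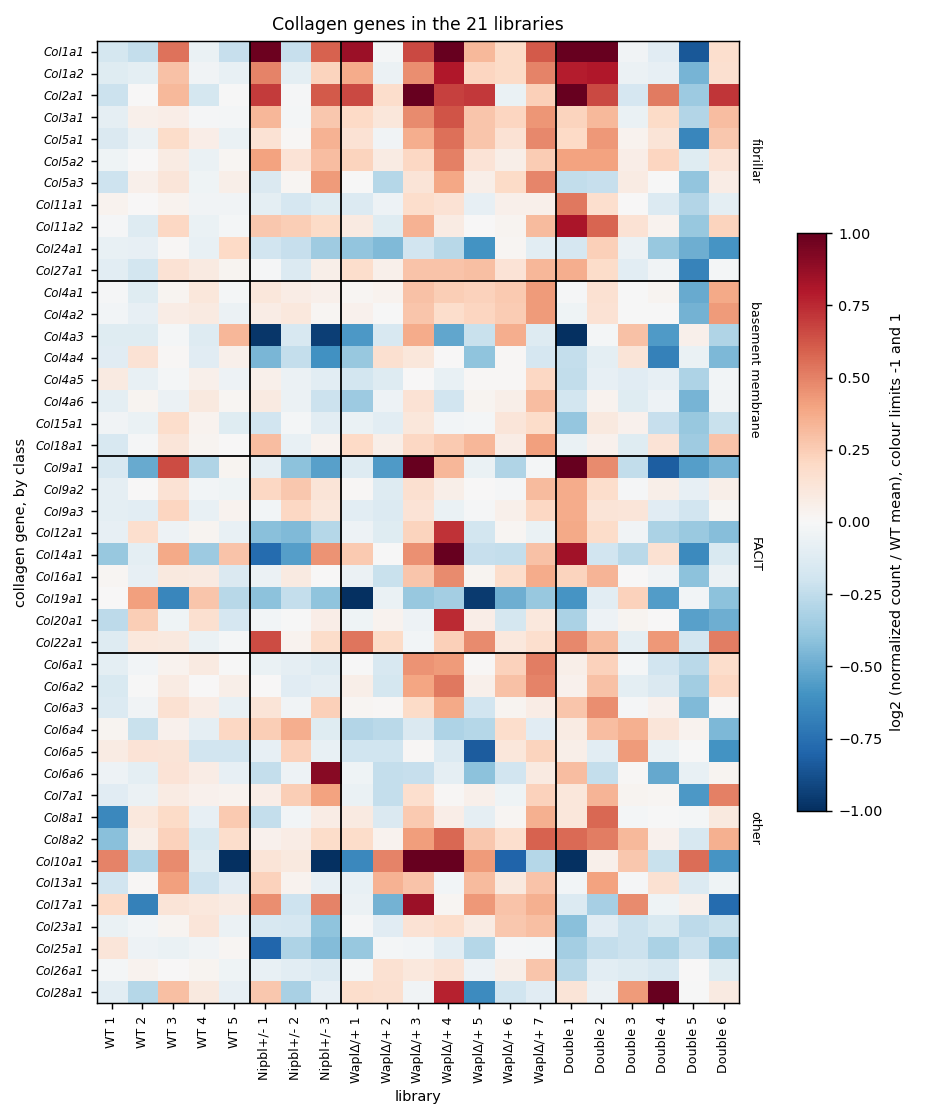
Log2 ratio of normalized counts to the WT mean (colour, limited to -1 and 1) for the 44 collagen genes (rows, by class) in the 21 libraries (columns, by genotype). Double heterozygote library 5 is blue in most fibrillar and type IV genes, and Col25a1 is blue in all Nipbl+/- and double heterozygote libraries.

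In Nipbl+/- embryos 13 of 44 collagen genes passed the test against WT (edgeR quasi-likelihood test, Benjamini-Hochberg adjusted p below 0.10), 7 higher and 6 lower. That is 29.5% of the collagen genes, beside 11.2% of all 30552 genes tested (4.25% higher and 6.96% lower). In WaplΔ/+ embryos 9 passed, all higher, or 20.5%, beside 2.22% of all genes (0.769% higher). In double heterozygotes 2 passed, both lower, or 4.55%, beside 3.28% of all genes (2.46% lower). These shares compare genes of unlike abundance. Of the genes tested, 17303 averaged 1 CPM or more, as did all collagen genes except Col10a1 and Col17a1. The share called among those 17303 genes was not counted. The median log2 fold change of the 44 genes was 0.018 in Nipbl+/- embryos, 0.13 in WaplΔ/+ embryos and 0.039 in double heterozygotes, and the medians of all tested genes were -0.009, -0.003 and 0.001. The 3 comparisons share the WT libraries. The WaplΔ/+ count was the least stable of the 3: it was 0 without WT library 1 or WT library 2, 1 without WaplΔ/+ library 4 or 5 or WT library 5, and 0 when all 4 groups were fitted together. The calls over all genes fell with it, from 677 to 13, 9, 241, 264, 99 and 7 in the same order. The 9 collagen genes kept their sign in each of these fits, which reuse the libraries of the main fit and are not independent of it. Over all settings run, 2 of the 13 Nipbl+/- calls, Col5a2 and Col25a1, and 0 of the 9 WaplΔ/+ calls passed in every one. Col3a1, Col4a3 and Col22a1 each lost the Nipbl+/- call in 10 of 18 settings, and Col1a1 lost the WaplΔ/+ call in 17 of 23.

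**Figure D3:**
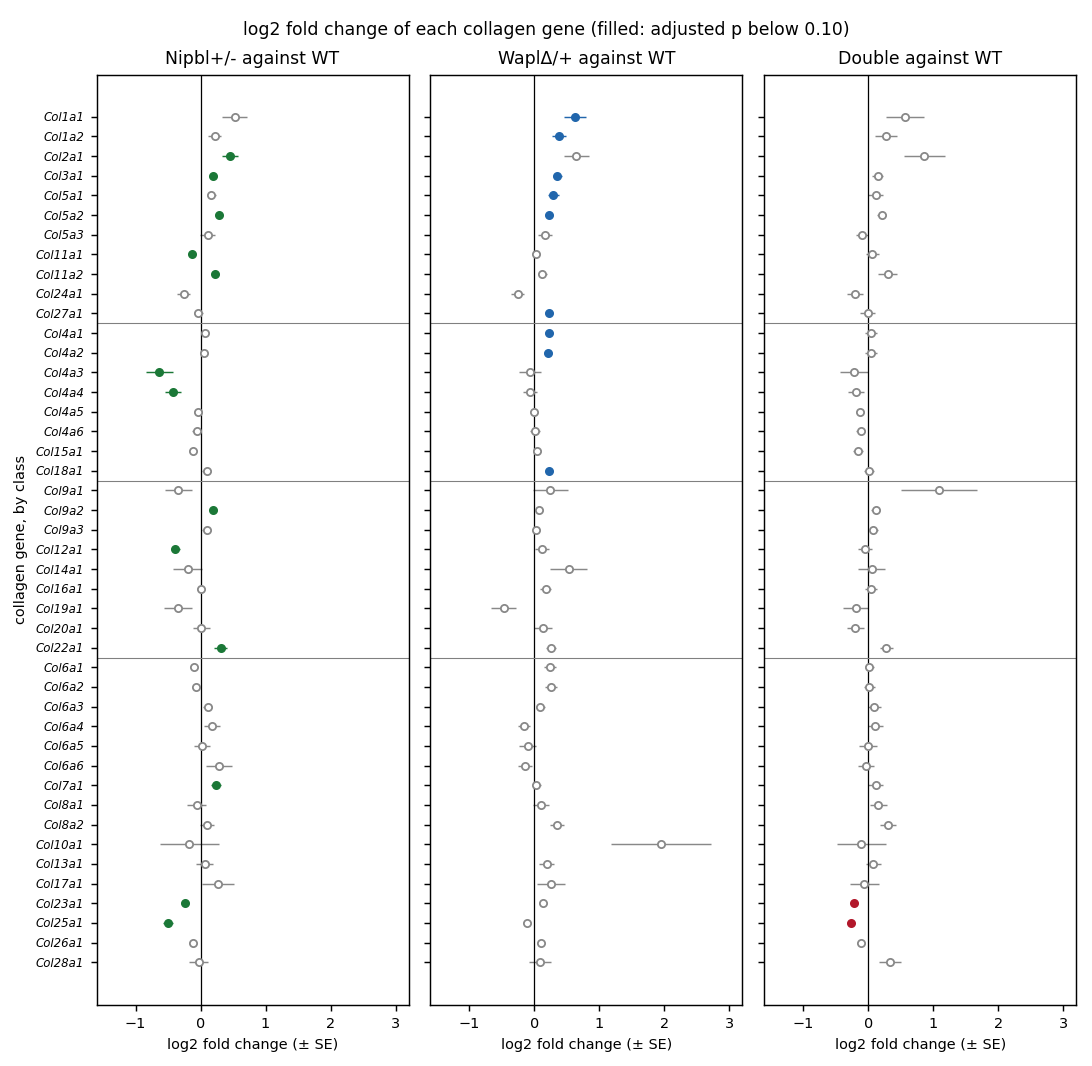
Log2 fold change ± SE (x axis) of each of the 44 collagen genes (y axis, by class) in Nipbl+/-, WaplΔ/+ and double heterozygote embryos against WT; filled points have an adjusted p below 0.10. Filled points number 13, 9 and 2, and those of WaplΔ/+ embryos all lie to the right of 0.

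Among the fibrillar collagens, 4 of 11 rose and 1 fell in Nipbl+/- embryos, 6 of 11 rose in WaplΔ/+ embryos, and none passed in double heterozygotes. Of all genes 4.25% were higher and 6.96% lower in Nipbl+/- embryos, 0.769% were higher in WaplΔ/+ embryos, and 3.28% passed in double heterozygotes. Col3a1 (chr1:45311538-45349706, GRCm38), the chain of type III collagen of vessel walls and meninges, had 5757, 6356, 6426, 6071 and 6030 normalized counts in WT. It had 7727, 6048 and 7395 in Nipbl+/- embryos, 6637 to 9463 (median 7423) in WaplΔ/+ embryos and 5002 to 7670 (median 7074) in double heterozygotes. All WaplΔ/+ libraries lay above all WT libraries, and the other mutant groups overlapped WT. The log2 fold change was 0.35 ± 0.067 (SE, adjusted p = 0.0381) in WaplΔ/+ embryos and 0.20 ± 0.060 (adjusted p = 0.0505) in Nipbl+/- embryos. It was the only collagen gene of which the WaplΔ/+ and WT libraries did not overlap, with WaplΔ/+ higher, which held for 0.733% of all genes.

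Col5a2 (chr1:45374331-45503282), a chain of type V collagen that starts fibrils, lies next to Col3a1 with 24624 bases between them. It had 1684, 1739, 1839, 1659 and 1756 normalized counts in WT and 2296, 1907 and 2154 in Nipbl+/- embryos. Every Nipbl+/- library was above every WT library, the only collagen gene of which this was true, beside 6.54% of all genes. The log2 fold change was 0.28 ± 0.052 (adjusted p = 0.00244), and it passed the test in all 18 settings run. In WaplΔ/+ embryos Col5a2 had 1809 to 2458 counts (median 2008), overlapping WT, with a log2 fold change of 0.22 ± 0.059 (adjusted p = 0.0824). Its partner chain Col5a1 passed in WaplΔ/+ embryos, at 0.29 ± 0.081 (adjusted p = 0.0934).

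Type I collagen, the main fibre of bone and skin, has the chains Col1a1 and Col1a2. Col1a1 (chr11:94936224-94953042) had 3610, 3453, 5940, 3886 and 3461 normalized counts in WT and 8052, 3473 and 6124 in Nipbl+/- embryos. It had 4013 to 9986 (median 6238) in WaplΔ/+ embryos, and 10910, 10500, 3963, 3757, 2260 and 4567 in double heterozygotes. All groups overlapped, and the double heterozygotes held both the highest and the lowest libraries of the 21. In WaplΔ/+ embryos the log2 fold changes were 0.62 ± 0.18 for Col1a1 (adjusted p = 0.0952) and 0.38 ± 0.10 for Col1a2 (adjusted p = 0.0891). Col1a1 did not pass in Nipbl+/- embryos (0.52 ± 0.19, adjusted p = 0.109). The libraries with the most Col1a1 among the Nipbl+/- and double heterozygote embryos also had the most Ibsp, a bone matrix protein, with 556.7 counts in Nipbl+/- library 1 and 710.9 and 660.8 in double heterozygote libraries 1 and 2, beside 8.998 to 119.8 in WT. WaplΔ/+ library 4, with 9986 counts of Col1a1, had 43.18 of Ibsp. Of the 6 bone markers 1 passed as higher and 1 as lower in Nipbl+/- embryos, beside 4.25% and 6.96% of all genes. None of them passed in WaplΔ/+ or double heterozygote embryos, beside 2.22% and 3.28% of all genes. Without the 6 libraries whose cartilage or bone markers exceeded all WT libraries, none of the 9 WaplΔ/+ calls passed and 8 collagen genes passed in Nipbl+/- embryos. All 9 kept their sign, and with fewer libraries the calls over all genes were 8 in place of 677 in WaplΔ/+ embryos and 1828 in place of 3422 in Nipbl+/- embryos. By this rule no WT library could be left out, although WT library 3 set the WT maximum of both sums (7.95 and 19.8 CPM). That library also had the highest sum of skeletal muscle markers of the 21, 74.1 CPM, beside a WT median of 8.11. Without WT library 3, 16 collagen genes passed in Nipbl+/- and 11 in WaplΔ/+ embryos, beside 3340 and 624 of all genes. The part of skeletal tissue in these values was not tested further.

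Col2a1, the main collagen of cartilage, rose in Nipbl+/- embryos, with 929.7, 1079, 1352, 952.7 and 1074 normalized counts in WT and 1749, 1068 and 1649 in Nipbl+/- embryos. The groups overlapped through Nipbl+/- library 2, and the log2 fold change was 0.46 ± 0.12 (adjusted p = 0.0287). The call was lost in 7 of 18 settings, among them DESeq2 and the fits without Nipbl+/- library 1 or 3. In Nipbl+/- embryos the cartilage markers summed to 3.84 to 4.82 CPM, below all WT libraries. In double heterozygotes Col2a1 ranged from 835.2 to 4823 counts (median 1626), with the highest value in library 1, where cartilage markers stood at 49.5 CPM. The chains of type XI collagen, which sits in the core of fibrils, went opposite ways in Nipbl+/- embryos. Col11a1 had 1938 to 2040 counts in WT and 1862, 1774 and 1829 in Nipbl+/- embryos, without overlap (-0.13 ± 0.039, adjusted p = 0.0398), and Col11a2 had 1111 to 1403 and 1463, 1438 and 1391, with overlap (0.23 ± 0.059, adjusted p = 0.0218). Col27a1, a fibrillar collagen of cartilage growth, rose in WaplΔ/+ embryos by 0.23 ± 0.062 on the log2 scale (adjusted p = 0.0831).

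**Figure D4:**
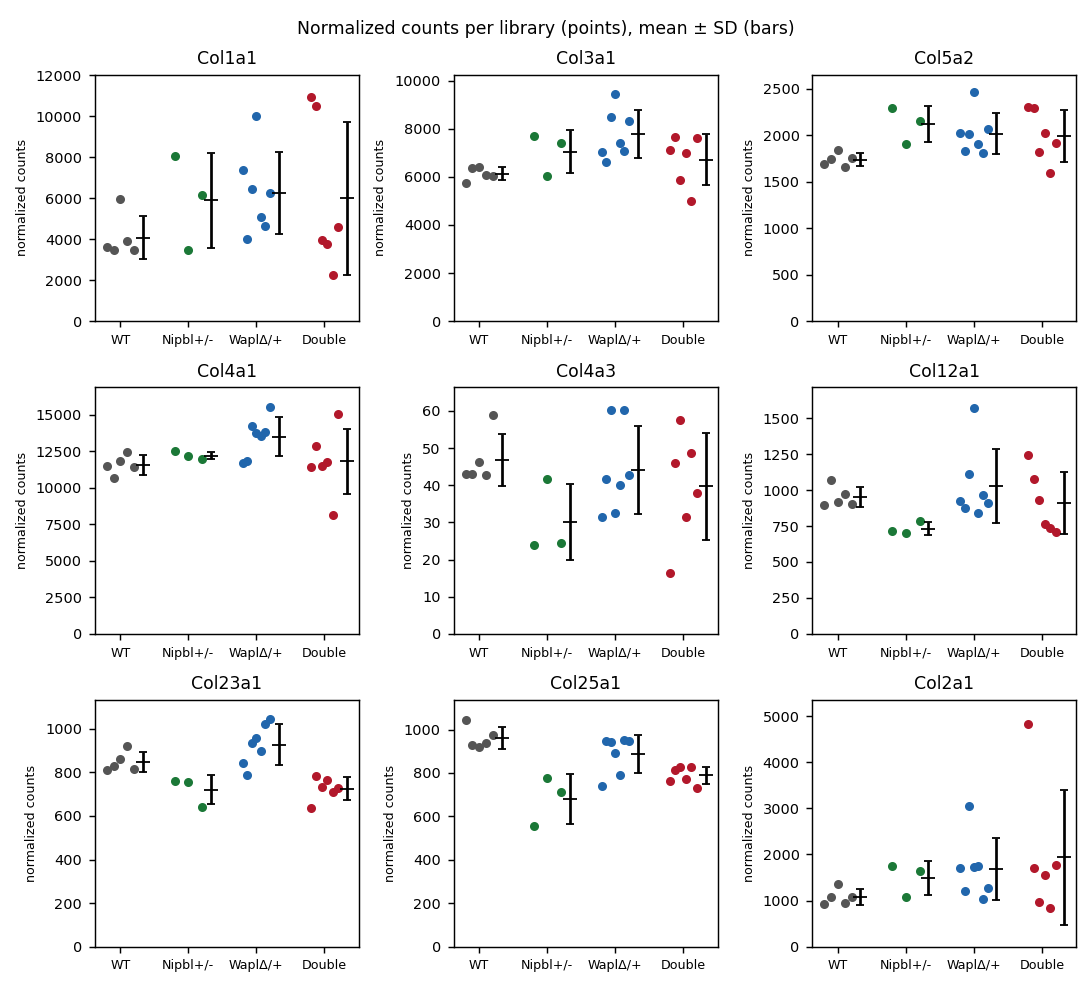
Normalized counts (y axis) of 9 collagen genes in each library by genotype (x axis); points are libraries and bars are mean ± SD. Col3a1 lies above all WT libraries in all WaplΔ/+ libraries, and Col25a1 lies below all WT libraries in all Nipbl+/- and double heterozygote libraries.

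Of the 8 basement membrane collagens, 3 rose in WaplΔ/+ embryos, 2 fell in Nipbl+/- embryos and none passed in double heterozygotes. The shares of all genes in the same order were 0.769% higher, 6.96% lower and 3.28% in either direction. Col4a1 and Col4a2, the chains of the type IV network of vessels, share a locus on chromosome 8, where their spans overlap by 85 bases. Col4a1 had 11480, 10660, 11810, 12490 and 11400 normalized counts in WT, 11710 to 15560 (median 13740) in WaplΔ/+ embryos and 12510, 12160 and 11990 in Nipbl+/- embryos. WaplΔ/+ libraries 1 and 2, with 11710 and 11870 counts, lay within the WT range, and libraries 3 to 7, with 13550 to 15560, lay above it. The log2 fold change in WaplΔ/+ embryos was 0.23 ± 0.057 for Col4a1 (adjusted p = 0.0634) and 0.21 ± 0.057 for Col4a2 (adjusted p = 0.0891). Libraries 3 to 7 are those with the higher mt-Nd3 count. With the mt-Nd3 level as a term in the fit, Col3a1 was the only collagen gene that passed in WaplΔ/+ embryos (0.30, adjusted p = 0.0837), and among the libraries with the higher mt-Nd3 level 4 passed, Col4a1 among them (0.25, adjusted p = 0.0649). None passed among the libraries with the lower level, of which the WaplΔ/+ group had 2. Over all genes these fits called 305 with the term, 278 at the higher level and 47 at the lower level, in place of 677. Col18a1, the source of endostatin, had 1529 to 1855 counts in WT and 1776 to 2262 in WaplΔ/+ embryos (0.23 ± 0.058, adjusted p = 0.065).

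Col4a3 and Col4a4, which form the type IV network of kidney and inner ear, lie head to head on chromosome 1 and their spans overlap by 114 bases. Both fell in Nipbl+/- embryos. Col4a3 had 43.03, 43.1, 46.14, 42.69 and 58.98 normalized counts in WT and 23.86, 41.79 and 24.37 in Nipbl+/- embryos (log2 fold change -0.64 ± 0.21, adjusted p = 0.071). Col4a4 had 99.51, 119, 109, 99.92 and 112 in WT and 78.53, 91.36 and 71 in Nipbl+/- embryos (-0.43 ± 0.13, adjusted p = 0.0426). No Nipbl+/- library reached a WT library in either gene, although Nipbl+/- library 2 fell short of the lowest WT library by less than 1 count in Col4a3. The remaining type IV pair, Col4a5 and Col4a6 on the X chromosome with 1274 bases between them, had log2 fold changes of -0.043 and -0.060 in Nipbl+/- embryos and of -0.015 and 0.009 in WaplΔ/+ embryos, and did not pass. How reads at overlapping ends were assigned is not given in the sources used here.

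Of the 9 FACIT collagens, 2 rose and 1 fell in Nipbl+/- embryos and none passed in the other groups. Over all genes 4.25% rose and 6.96% fell in Nipbl+/- embryos, and 2.22% and 3.28% passed in WaplΔ/+ and double heterozygote embryos. Col12a1 (chr9:79598987-79721141), a fibril-associated collagen of tendon and connective tissue, had 899.2, 1070, 917.9, 973 and 905.8 normalized counts in WT and 714.8, 700.8 and 783.1 in Nipbl+/- embryos. All Nipbl+/- libraries were below all WT libraries, and the log2 fold change was -0.39 ± 0.062 (adjusted p = 0.000898). In double heterozygotes Col12a1 had 1242, 1080, 930.2, 764.6, 737.1 and 709.1 counts, which spread from below to above the WT range. Col9a2, a chain of type IX collagen of cartilage and the eye, rose by 0.20 ± 0.053 on the log2 scale in Nipbl+/- embryos (adjusted p = 0.0282), while its partner Col9a3, the most abundant FACIT gene, had a log2 fold change of 0.096 and did not pass. Col22a1, a collagen of tissue junctions, rose by 0.31 ± 0.10 (adjusted p = 0.0719), and Nipbl+/- library 1, with 824.1 counts, was the highest of the 21. Col16a1 had log2 fold changes of 0.004 in Nipbl+/- and 0.17 in WaplΔ/+ embryos and did not pass.

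Among the 16 other collagens, the transmembrane collagens Col25a1 and Col23a1 fell in both groups with the Nipbl- allele. Col25a1 (chr3:130180358-130599884), a neuronal collagen whose shed ectodomain was first found in amyloid plaques, had 1046, 927.6, 919.9, 937.2 and 974.7 normalized counts in WT. It had 553.7, 776.6 and 711 in Nipbl+/- embryos, 761, 813.4, 827.7, 772.3, 825.9 and 731.3 in double heterozygotes, and 740.5 to 951.2 (median 943.3) in WaplΔ/+ embryos. Every library with the Nipbl- allele lay below every WT library, and the WaplΔ/+ libraries overlapped WT. The log2 fold change was -0.50 ± 0.079 (adjusted p = 0.000731) in Nipbl+/- embryos, where it passed in all 18 settings, -0.28 ± 0.047 (adjusted p = 0.0041) in double heterozygotes and -0.11 ± 0.058 (adjusted p = 0.372) in WaplΔ/+ embryos. In double heterozygotes it passed in 22 of 23 settings, the exception being the comparison of the libraries with the higher mt-Nd3 level, 2 in each group.

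Col23a1 (chr11:51289679-51583925), a transmembrane collagen, had 811.4, 831.1, 862.9, 920.7 and 816.8 normalized counts in WT. It had 759.5, 756.2 and 643.2 in Nipbl+/- embryos, 634.8, 783.8, 730.9, 764.6, 708.1 and 727 in double heterozygotes, and 786.3 to 1046 (median 935.6) in WaplΔ/+ embryos. As with Col25a1, the libraries with the Nipbl- allele lay below all WT libraries. The log2 fold changes were -0.24 ± 0.061 (adjusted p = 0.0199) in Nipbl+/- embryos and -0.22 ± 0.053 (adjusted p = 0.0387) in double heterozygotes. Col25a1 and Col23a1 were the collagen genes with all double heterozygotes below all WT libraries, 2 of 44 beside 2.29% of all genes. In Nipbl+/- embryos 8 of 44 lay below WT in this way, beside 6.9% of all genes. Col7a1, the anchoring fibril of skin, rose in Nipbl+/- embryos (0.24 ± 0.074, adjusted p = 0.059), with 466.2, 527.8 and 588.1 normalized counts, beside 411.5 to 472.2 in WT. Epidermis markers, led by Krt1, summed to 25.4, 17.4 and 31.6 CPM in those 3 libraries, beside 15.6 to 20.6 CPM in WT. Of these 5 markers 3 passed as higher in Nipbl+/- embryos, beside 4.25% of all genes, with a median log2 fold change of 0.605. The keratin Krt5, from this list, had 30.82, 1.944 and 41.33 counts in the Nipbl+/- libraries in the same order, beside 2.69 to 6.157 in WT. Nipbl+/- library 2, with the least Krt5, lay above all WT libraries in Col7a1, and library 1 lay within the WT range. The part of epidermis in Col7a1 or in the fibrillar collagens was not tested. The type VI chains Col6a1, Col6a2 and Col6a3, of the microfibrils around cells, did not pass in any comparison. Their log2 fold changes in WaplΔ/+ embryos were 0.23, 0.26 and 0.087, and those of Col6a1 and Col6a2 turned to -0.048 and -0.025 among the libraries with the lower mt-Nd3 level.

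Chains that assemble together kept their ratio to very different degrees. The ratio of Col4a1 to Col4a2 counts ran from 1.34 to 1.45 over the 21 libraries, a coefficient of variation of 2.23%, while each gene varied by 13%. The ratio of Col6a1 to Col6a2 ran from 1 to 1.15 (3.98%). By contrast, Col1a1 to Col1a2 ran from 0.49 in double heterozygote library 5 to 0.998 in double heterozygote library 1 (19.7%), which were also the libraries with the least and the most Col1a1. Col11a1 to Col11a2 ran from 1.45 to 1.8 in WT and from 1.23 to 1.31 in Nipbl+/- embryos, without overlap. These ratios are not scaled for transcript length, so that their spread can be read and their level cannot.

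**Figure D5:**
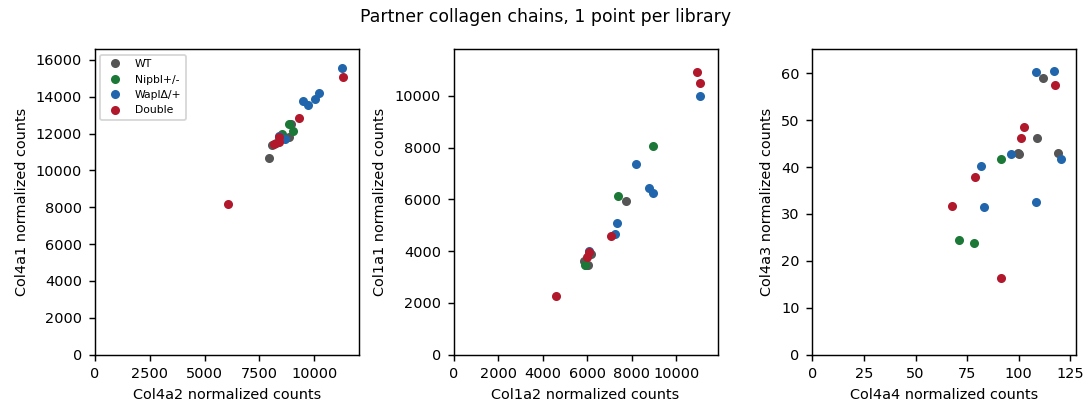
Normalized counts of partner collagen chains against each other, Col4a1 and Col4a2, Col1a1 and Col1a2, and Col4a3 and Col4a4, with 1 point per library coloured by genotype. The type IV pair Col4a1 and Col4a2 lies near a line through the origin (ratio 1.34 to 1.45), whereas the type I ratio runs from 0.49 to 0.998.

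The double heterozygotes were also compared with each single heterozygote. Against Nipbl+/- embryos no collagen gene passed, by edgeR or by DESeq2, beside 0.00655% of all genes by edgeR. An unadjusted p below 0.05 was found for 2 of 44, beside 4.12% of all genes. These were Col25a1, with a log2 difference of 0.22 ± 0.086, and Col12a1, with 0.32 ± 0.15. Against WaplΔ/+ embryos 2 of 44 were lower, beside 1.02% of all genes in either direction and 0.812% lower. Col23a1 differed by -0.35 ± 0.064 (adjusted p = 0.011), with no double heterozygote library reaching a WaplΔ/+ library, which held for 0.717% of all genes. Col26a1, a secreted collagen-like protein, differed by -0.22 ± 0.052 (adjusted p = 0.0565), with 1206 to 1468 and 1417 to 1774 normalized counts. The interaction asks whether the effect of the WaplΔ allele differs between embryos with and without the Nipbl- allele. No collagen gene passed it by edgeR, as for 0% of all genes. An unadjusted p below 0.05 was found for 7 of 44, beside 13.8% of all genes, and 2 passed by DESeq2, which called 793 genes in all. The 2 were Col3a1, with an interaction of -0.41 (adjusted p = 0.0869), and Col25a1, with 0.33 (adjusted p = 0.0819). By edgeR these were -0.44 ± 0.14 (adjusted p = 0.201) and 0.30 ± 0.11 (adjusted p = 0.211).

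The number of collagen genes called in double heterozygotes depended most on library 5, while Col25a1 and Col23a1 passed with and without it. Without double heterozygote library 5, 11 collagen genes passed against WT in place of 2, while the calls over all genes rose from 1001 to 2504. Those 11 were the lower Col25a1, Col23a1 and Col26a1, and the higher Col1a1, Col2a1, Col3a1, Col5a1, Col5a2, Col11a2, Col8a2 and Col22a1, with Col5a2 at 0.26 (adjusted p = 0.0102) and Col3a1 at 0.21 (adjusted p = 0.0304). Library 5 had the lowest summed basement membrane level of the 21 at 567 CPM, beside 750 to 990 CPM in the other double heterozygotes, and the highest sum of brain markers, 4950 CPM. The part of tissue composition in this was not tested.

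Genes that fold, process, bind and degrade collagen were examined as 65 genes in 5 lists, of which 64 were tested. In Nipbl+/- embryos 10 of 64 were higher and 6 lower, beside 4.25% and 6.96% of all genes. In WaplΔ/+ embryos 6 were higher, beside 0.769%, and in double heterozygotes 2 were higher and 4 lower, beside 0.812% and 2.46%. Mmp9, a gelatinase, was higher in all 3 groups, with 400.7 to 500.7 normalized counts in WT, 676.5 to 787.3 in Nipbl+/-, 497.1 to 754.7 in WaplΔ/+ and 583.9 to 744.3 in double heterozygote embryos. The log2 fold changes were 0.68 (adjusted p = 4.27e-05), 0.50 (adjusted p = 0.0381) and 0.55 (adjusted p = 0.000185), and only the WaplΔ/+ libraries overlapped WT. Ddr1, a receptor kinase for collagen, rose by 0.30 in Nipbl+/- and by 0.18 in WaplΔ/+ embryos on the log2 scale, without overlap in either (adjusted p = 0.000254 and 0.0478). Adamts3 and Adamts2, which cleave the amino-terminal propeptides of fibrillar procollagens, fell in Nipbl+/- embryos by 0.47 and 0.33 and in double heterozygotes by 0.27 and 0.26 on the log2 scale. Adamts3 had 724.5 to 755.8 counts in WT, 478.2 to 601.9 in Nipbl+/- and 509.6 to 718.5 in double heterozygote embryos, without overlap (adjusted p = 0.000189 and 0.0587).

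The inhibitors of matrix proteases Timp4 and Timp3 fell in Nipbl+/- embryos, with log2 fold changes of -0.37 (adjusted p = 0.00101) and -0.30 (adjusted p = 0.0052). In double heterozygotes Timp3 fell by 0.18 on the log2 scale (adjusted p = 0.0842) and Timp2 by 0.15 (adjusted p = 0.0741), and P4ha1, a prolyl hydroxylase subunit, rose by 0.27 (adjusted p = 0.0765). In WaplΔ/+ embryos the cross-linking enzyme Lox rose by 0.31 (adjusted p = 0.0381), with 427.9 to 497.7 counts in WT and 476.7 to 643.9 in WaplΔ/+ embryos. Pcolce, an enhancer of procollagen processing, rose by 0.305 (adjusted p = 0.0592), the collagen receptor Mrc2 by 0.23 (adjusted p = 0.0478) and the lysyl hydroxylase Plod3 by 0.13 (adjusted p = 0.089). Against WaplΔ/+ embryos the double heterozygotes had less Adamts2, at -0.31 (adjusted p = 0.0259).

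Markers of the cells that make collagen were examined in the same way. Of the 11 meningeal fibroblast markers, 1 passed in WaplΔ/+ embryos, Gjb2, a gap junction protein, with 199 to 253.4 normalized counts in WT and 285 to 360.3 in WaplΔ/+ embryos, without overlap (0.48, adjusted p = 0.0118). Of 7 endothelial and 7 pericyte and mural markers 1 each rose in WaplΔ/+ embryos, Cdh5 by 0.15 and Pdgfrb by 0.19 on the log2 scale. Of all genes 0.769% were higher in that comparison. The median log2 fold changes of the meningeal, endothelial and mural lists there were 0.15, 0.061 and 0.084, beside 0.13 for the 44 collagen genes and -0.003 for all genes. In Nipbl+/- embryos 1 meningeal marker rose and 1 fell, 1 endothelial marker rose and 1 fell, and 2 pericyte markers fell. Of all genes 4.25% were higher and 6.96% lower there. None of the 3 lists had a called gene in double heterozygotes, where 3.28% of all genes were called. The part of cell number in the collagen values was not tested.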

How the data were processed

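Adapters were removed by the authors with cutadapt 2.4, reads were aligned to mm10 (GRCm38.p6) with STAR 2.5.3a, and featureCounts of Subread 1.6.4 assigned them to genes, per the paper and the submitters' processing notes. The deposited values are raw counts per gene in 21 libraries. The annotation and the strand setting are not given in the sources used here.

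Groups were taken from the sample labels. The quasi-likelihood test of edgeR 4.0.16 (R 4.3.3), with TMM factors, was run on the libraries of the groups compared, and on all 4 groups for the interaction. A gene was tested where its normalized counts reached 10 in sum (30552 genes), and was called at an adjusted p (Benjamini-Hochberg) below 0.10, the threshold of the study. Normalized counts are scaled to the mean effective library size. SE of a log2 fold change is its size divided by the square root of the F statistic. The study compared littermates, but the litter of each library is not given in the sources used here, and p-values measure the spread between these libraries. The scripts were tested on simulated data. All 44 collagen genes were matched by symbol to a RefSeq table of GRCm38.p6 for coordinates. No sequence was available for printing.

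The collagen classes, the gene lists and the tests were chosen with earlier results of these data known. Named genes are those called (at most 10 per comparison, by size), the 4 most abundant per class, the 3 type IV pairs, Wapl and Nipbl, up to 6 called genes per comparison from the collagen pathway lists, and the leading cell markers; other genes were named after their values were seen. Alternatives were DESeq2 1.42.0, its size factors, other filters, a threshold of 0.05, all 4 groups in a single fit, the replicate number as a block, the mt-Nd3 level as a term or a subset (at least 30 counts counted as high), and leaving out each library. Fits without the libraries high in skeletal markers, and without double heterozygotes 1 and 2, were chosen after seeing the data.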

Additional observations from a re-analysis of the deposited data

Results flagged for a closer look

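The 96 checks were each of a named collagen gene or class sum within a group of 5 to 7 libraries. In 8 of them a library lay far from the rest. The cutoff flags about 1 in 20 by chance for independent, normally distributed values. The checks overlap, as the fibrillar sum contains Col1a1 and Col1a2, so no excess over chance can be read from the 8. WT library 3 stood above the other WT libraries in Col1a1 (5940 normalized counts, next 3886), in Col1a2 (7756, next 6189) and in the fibrillar sum (942 CPM, next 780). WT library 5 stood above in Col4a3 (58.98, next 46.14). Among WaplΔ/+ embryos, library 4 was highest in Col12a1 (1573, next 1112) and in Col5a2 (2458, next 2068), and library 3 in Col2a1 (3048, next 1755). Among double heterozygotes, library 1 was highest in Col2a1 (4823, next 1770).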

How the results depend on the processing

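The called collagen genes kept their direction in every setting run: 13 in Nipbl+/-, 9 in WaplΔ/+ and 2 in double heterozygote embryos against WT, and 2 in double heterozygotes against WaplΔ/+ embryos. The settings reuse the libraries in which these genes were called, so a kept direction is not independent support. Their number varied. Leaving out each library in turn gave 7 to 17 in Nipbl+/- embryos (7 without Nipbl+/- library 3 and 8 without library 1), 0 to 13 in WaplΔ/+ embryos (0 without WT library 1 or 2, 1 without WT library 5 or WaplΔ/+ library 4 or 5, 2 without WT library 4 and 4 without WaplΔ/+ library 7), 1 to 11 in double heterozygotes (1 without WT library 4, 4 without double heterozygote library 3 and 11 without library 5), 1 to 3 against WaplΔ/+ embryos (1 without WaplΔ/+ library 3, 4 or 7 or double heterozygote library 1, 2 or 4), and 0 to 2 for the interaction (2 without double heterozygote library 6). Over all genes, leaving out each library called 1828 to 4788 genes in Nipbl+/- embryos (3422 with all libraries) and 9 to 1534 in WaplΔ/+ embryos (677). The calls were 454 to 2504 in double heterozygotes (1001), 163 to 449 against WaplΔ/+ embryos (311) and 0 to 945 for the interaction (0). A fit of all 4 groups called 2, 0 and 1 collagen genes in the Nipbl+/-, WaplΔ/+ and double heterozygote embryos, beside 1658, 7 and 602 of all genes. The mt-Nd3 term gave 7 collagen genes in Nipbl+/- and 1 in WaplΔ/+ embryos, and 1 against WaplΔ/+ embryos, beside 2426, 305 and 162 of all genes. The libraries with low mt-Nd3 gave 4, 0 and 0, beside 1881, 47 and 24 of all genes. Those with high mt-Nd3 gave 4 in WaplΔ/+, 0 in double heterozygotes and 1 against WaplΔ/+ embryos, beside 278, 1 and 29 of all genes. The filterByExpr filter gave 5 in WaplΔ/+ embryos, beside 687 of all genes. A threshold of 0.05 gave 1 there and 1 against WaplΔ/+ embryos, beside 181 and 171 of all genes. Without the libraries high in skeletal markers the numbers were 8, 0 and 1, and 0 against WaplΔ/+ embryos, beside 1828, 8, 335 and 34 of all genes. Without double heterozygotes 1 and 2 they were 1 against WT and 1 against WaplΔ/+ embryos, beside 335 and 111 of all genes. DESeq2 called 2 for the interaction. The cause of these differences was not tested.

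The replicate number as a block gave 6 collagen genes in Nipbl+/- embryos, 14 in WaplΔ/+ embryos, 2 in double heterozygotes, 3 against Nipbl+/- embryos, 2 against WaplΔ/+ embryos and 0 for the interaction. Over all genes it called 1893, 1991, 535, 59, 253 and 0 in the same order, in place of 3422, 677, 1001, 2, 311 and 0. Deviations from the group means of libraries with the same number correlated from -0.23 to 0.327. The highest value was that of double heterozygote library 1 with WaplΔ/+ library 1. These correlations cannot decide whether libraries with the same number share a litter, which is not given in the sources used here.

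Log2 fold changes that turned were Nipbl in WaplΔ/+ embryos (0.008 without WT library 1, and down to -0.049 without WT library 3), Col10a1 in double heterozygotes against WaplΔ/+ embryos without the libraries high in skeletal markers (0.068), and, with low mt-Nd3 libraries, Col10a1 (-0.23), Col6a1 (-0.048) and Col6a2 (-0.025) in WaplΔ/+ embryos; none of them was called. Of the class sums in Nipbl+/- embryos, the other collagens were 93.5% of WT without Col6a3 and 94.5% to 97.3% without each library, and the FACIT collagens were 102% to 106% without each library. Col10a1, with as few as 2 counts in a library, and Col4a3, with 17, are limited by depth.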
